A study of Mus musculus with 18 samples.

Results

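Genes of mitosis and of the G2/M transition were described in mouse cells that the labels call HL-1, a dividing line derived from an atrial cardiomyocyte tumour. The 59 genes were taken by symbol from the deposited read-count table, which listed 29112 genes, by a rule that uses no measured value. The list of symbols itself was chosen with earlier results of these data known. All 59 passed the filter on low counts, so they stand among the 15074 genes tested. The lowest count of any of them in any library was 25 reads, in a vehicle library.

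The 18 libraries fell into 6 groups of 3. Inhibitor cells were transfected with an inhibitor of miR-200a-3p and inhibitor control cells with its negative control. Mimic cells were transfected with a miR-200a-3p mimic and mimic control cells with the negative control of the mimic. All 4 transfected groups were also kept in high glucose and were harvested 48 h after transfection. For high-glucose cells and vehicle cells the labels name no microRNA reagent. The mimic is a synthetic duplex that adds microRNA activity, and the inhibitor binds the microRNA and blocks it. How much glucose was added, for how long, and whether the untransfected cells met the transfection reagent is not given in the sources used here. Whether the 3 libraries of a group are separate cultures is not stated in the labels either, and the p-values rest on the spread among those libraries, which may be technical.

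Library totals were 33655916 to 37928790 reads, and 3 reads correspond to 0.0791 to 0.0891 counts scaled to library size (CPM, the reads of a gene relative to all reads), by library. Of 13 cardiomyocyte markers, 8 stayed under 1 unscaled CPM in every library, among them Nppa, with at most 1 read in any group, and Myh6, with 6 to 14 reads per group. Tnnt2 lay at 14.2 to 79.3 and Gata4 at 8.31 to 13.1 unscaled CPM, so defining atrial markers of the labelled cell type were at or near 0. The summed level of 7 fibroblast markers was 2410 to 2536 unscaled CPM in inhibitor cells, 2448 to 2584 in inhibitor control cells, 1050 to 1090 in mimic cells, 1059 to 1093 in mimic control cells, 10940 to 12080 in high-glucose cells and 10570 to 10850 in vehicle cells. Mimic replicate 2 stood apart with a summed macrophage marker level of 1271 unscaled CPM, against 36.8 to 68.7 in the other 17 libraries. Xist averaged 1180 unscaled CPM in inhibitor cells, 1210 in inhibitor control cells, 244 in mimic cells, 108 in mimic control cells, 31.6 in high-glucose cells and 45.2 in vehicle cells, so the 3 pairs of groups also differed outside the cell cycle.

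Entry into mitosis is driven by CDK1 bound to B-type cyclins, which the CDC25 phosphatases activate. Chromosomes are condensed, attached to the spindle at kinetochores and held back by the spindle assembly checkpoint until CDC20 turns on the anaphase-promoting complex (APC/C), which destroys cyclin B and securin and so frees separase to split the sister chromatids. Most of these genes are transcribed late in the cell cycle by B-MYB and FOXM1 acting with the MuvB complex, and the same complex represses them in resting cells. Adult cardiomyocytes have largely left the cell cycle, whereas HL-1 cells divide in culture.

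The promoters of members of 6 roles are shown because most of these genes share the regulators named above. Whether the motifs of these promoters bear on any comparison here was not tested. Each sequence runs 5′ to 3′ on the strand of the gene from 150 bases before to 50 bases after the start of transcription, from RefSeq on GRCm38.p6. Capitals mark the cell cycle genes homology region (CHR), searched as TTTGAA or TTCGAA, and the CCAAT box, searched as CCAAT. Both motifs were searched on both strands, so TTCAAA and ATTGG are also capitals, and in the windows shown the motifs do not overlap each other. Promoters stand for cyclin B1 (Ccnb1), the Polo kinase Plk1, the APC/C activator Cdc20, the checkpoint kinase Bub1, the spindle motor Kif11 and the proliferation antigen Mki67.
Ccnb1: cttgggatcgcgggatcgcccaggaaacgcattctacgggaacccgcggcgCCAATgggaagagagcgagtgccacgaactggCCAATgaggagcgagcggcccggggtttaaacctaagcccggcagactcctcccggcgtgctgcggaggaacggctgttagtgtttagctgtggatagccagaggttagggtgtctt
Plk1: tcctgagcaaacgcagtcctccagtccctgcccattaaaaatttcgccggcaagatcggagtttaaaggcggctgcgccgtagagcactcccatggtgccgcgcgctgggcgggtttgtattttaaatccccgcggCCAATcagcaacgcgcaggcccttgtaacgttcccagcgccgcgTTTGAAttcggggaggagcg
Cdc20: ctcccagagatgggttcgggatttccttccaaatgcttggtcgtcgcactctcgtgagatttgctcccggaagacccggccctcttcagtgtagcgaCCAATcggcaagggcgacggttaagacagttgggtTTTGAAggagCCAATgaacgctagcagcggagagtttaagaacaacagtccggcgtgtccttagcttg
Bub1: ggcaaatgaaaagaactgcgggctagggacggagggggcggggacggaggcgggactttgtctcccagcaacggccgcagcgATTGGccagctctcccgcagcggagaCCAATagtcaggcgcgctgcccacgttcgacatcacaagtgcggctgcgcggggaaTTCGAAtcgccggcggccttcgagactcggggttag
Kif11: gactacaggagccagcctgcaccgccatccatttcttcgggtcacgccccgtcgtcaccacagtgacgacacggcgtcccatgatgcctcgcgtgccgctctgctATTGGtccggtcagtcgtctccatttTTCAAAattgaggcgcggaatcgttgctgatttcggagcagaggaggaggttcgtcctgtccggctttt
Mki67: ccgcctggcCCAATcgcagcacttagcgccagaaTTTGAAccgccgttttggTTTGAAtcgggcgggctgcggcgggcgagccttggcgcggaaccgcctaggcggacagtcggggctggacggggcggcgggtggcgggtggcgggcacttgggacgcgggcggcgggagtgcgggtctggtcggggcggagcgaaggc
These windows lie at chr13:100786437-100786636 (- strand), chr7:122159285-122159484 (+ strand), chr4:118437294-118437493 (- strand), chr2:127831810-127832009 (- strand), chr19:37376232-37376431 (+ strand) and chr7:135716330-135716529 (- strand). Over the full window of 250 bases before to 50 after the start, 49 of the 59 genes had an entry. A CHR was found in 37 of them (75.5%), against 5854 of 27025 genes in the table (21.7%). A CCAAT box was found in 36 (73.5%), against 41.1% of the table, and both motifs together in 33 (67.3%), against 8.6%. The window of Ccnb1 held CCAAT boxes and none of the searched CHR words.

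The members were expressed at a higher level in the transfected groups than in the untransfected ones. Their summed level was 3680 ± 187 CPM in inhibitor cells, 3497 ± 29.4 CPM in inhibitor control cells, 4292 ± 141 CPM in mimic cells, 4591 ± 57.5 CPM in mimic control cells, 1220 ± 16.4 CPM in high-glucose cells and 902 ± 28.6 CPM in vehicle cells (SD, n = 3 libraries each, CPM scaled by TMM). The 3 libraries of each untransfected group lay below every transfected library, and high-glucose libraries lay above vehicle libraries. Per transcript length, the median member stood at 8.86 FPKM in inhibitor cells, 8.34 in inhibitor control cells, 9.36 in mimic cells, 9.36 in mimic control cells, 2.47 in high-glucose cells and 1.64 in vehicle cells. FPKM are the authors' fragments scaled to transcript length and library size. Incenp, the scaffold of the chromosomal passenger complex, had the highest FPKM in mimic, mimic control, high-glucose and vehicle cells, at 83.8, 96.3, 33.6 and 28 FPKM. In the inhibitor and inhibitor control cells the condensin subunit Smc4 was highest, at 43.3 and 40.7 FPKM. The checkpoint kinase gene Ttk was the lowest of the 59 in every group, at 1.49, 1.41, 1.79 and 1.72 FPKM in inhibitor, inhibitor control, mimic and mimic control cells and at 0.237 and 0.167 FPKM in high-glucose and vehicle cells.

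**Figure D1:**
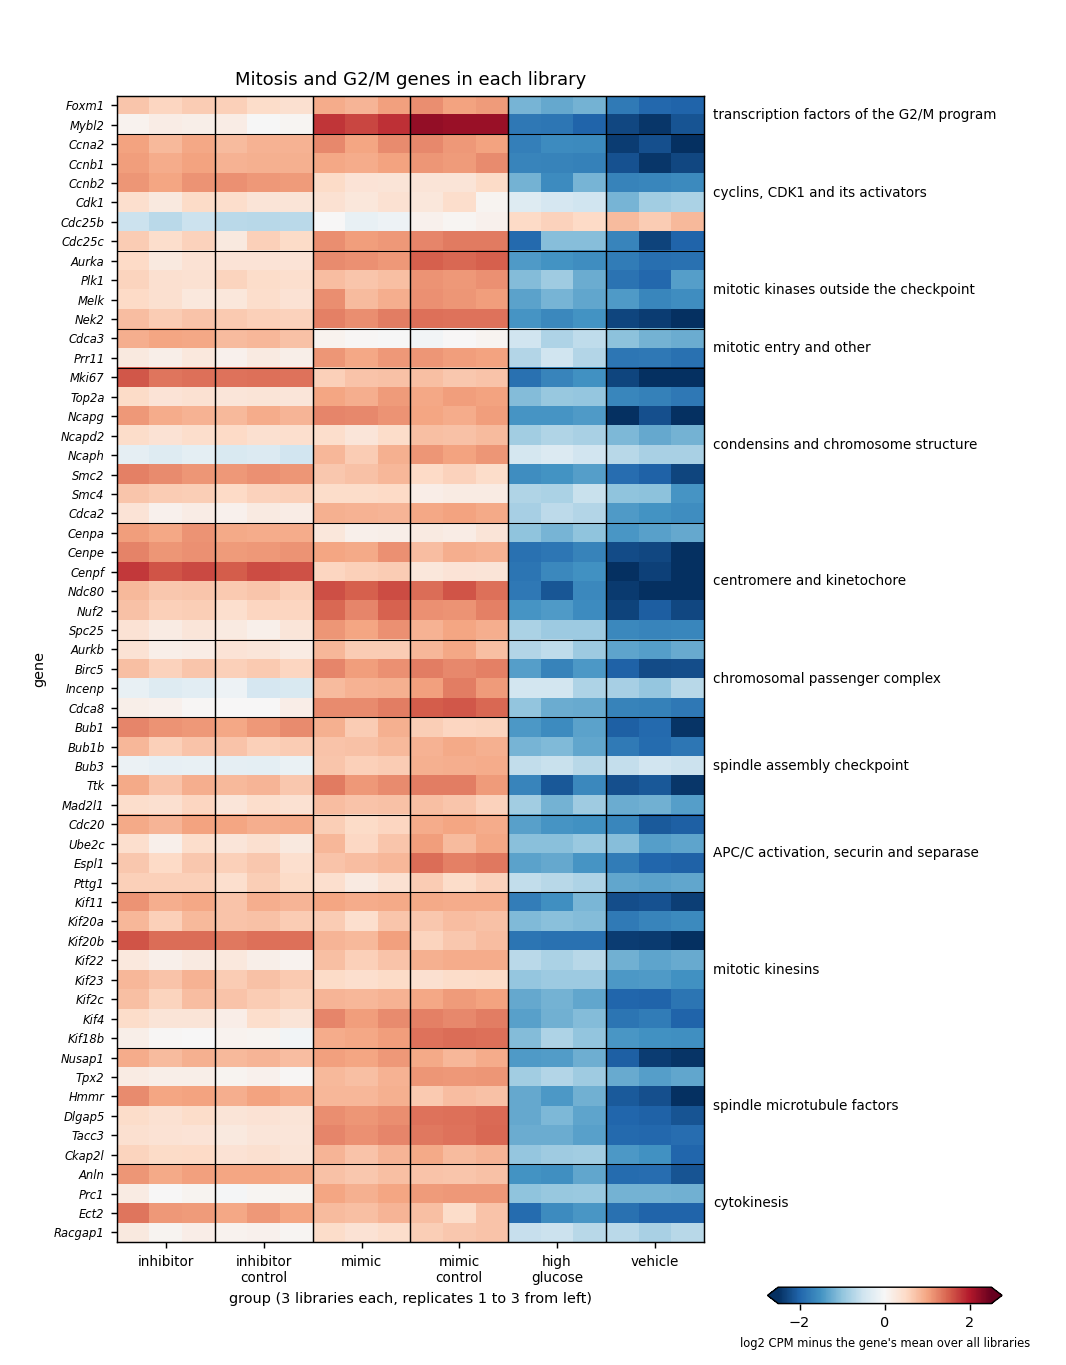
Level of each of the 59 genes (rows, grouped by role) in the 18 libraries (columns, 3 per group), as log2 CPM minus the mean of the gene over 18 libraries. High-glucose and vehicle columns are below the mean for almost all genes, and Cdc25b shows the opposite pattern.

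The heatmap of all members by library shows the 3 pairs of groups as blocks. In 57 of the 59 members every transfected library lay above every untransfected one, and Ncaph and Cdc25b were the exceptions. The same share over all genes was not computed, so how far 57 of 59 departs from it is not known. By a different rule, the adjusted p, 39% of all genes tested were called higher in mimic control and 40.1% in inhibitor control cells than in high-glucose cells. Ncaph, a condensin subunit, had 17.9 to 19.6 CPM in inhibitor control cells and 18 to 19.7 CPM in high-glucose cells. Cdc25b, the CDC25 phosphatase that starts CDK1 activation, ran the opposite way. It had 31.4 to 34.7 CPM in inhibitor cells, 31.0 to 31.6 CPM in inhibitor control cells, 43.9 to 50.7 CPM in mimic cells and 51.9 to 54.0 CPM in mimic control cells, against 70.6 to 74.8 CPM in high-glucose cells and 78.0 to 87.7 CPM in vehicle cells.

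The first comparison, of high glucose with vehicle, asks about glucose in cells without a microRNA reagent. Members of every mitotic role rose in high-glucose cells, with group medians of 0.28 to 0.85 on the log2 scale. Of the 59 members, 52 rose and 1 fell (adjusted p under 0.05 in edgeR's quasi-likelihood test with Benjamini-Hochberg adjustment over 15074 genes), where 12% of all genes tested were called higher and 12.2% lower. The median log2 fold change was 0.60, or 1.52-fold, against 0 over all genes tested. Only Prr11 and Ncapg reached 2-fold, which 0.332% of all genes did. In 53 members every high-glucose library lay above every vehicle library and in 1 below, as in 16.3% and 18.3% of all genes. More dividing cells and more of these transcripts per dividing cell cannot be told apart in bulk RNA.

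Both transcription factors of the programme rose. Foxm1, which activates G2/M genes, had 6.33, 5.87 and 6.28 CPM in high-glucose cells, against 4.15, 3.64 and 3.54 CPM in vehicle cells (log2 fold change 0.71 ± 0.0892 SE, adjusted p = 7.43e-06). The B-MYB gene Mybl2 had 2.16, 2.14 and 1.87 CPM in high-glucose cells, against 1.53, 1.37 and 1.67 CPM in vehicle cells (0.43 ± 0.107, adjusted p = 0.0187). Neither gene showed overlap between the 2 groups.

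Cyclins and CDK1 rose together, 5 of 6 with a median of 0.57 for the group. Ccnb1 had 7.38, 7.34 and 7.23 CPM in high-glucose cells, against 5.16, 4.27 and 4.82 CPM in vehicle cells (0.62 ± 0.0691, adjusted p = 1.54e-06). Cdk1, the mitotic kinase that cyclin B binds, had 29.2, 27.2 and 25.6 CPM in high-glucose cells, against 16.2, 20.0 and 21.0 CPM in vehicle cells (0.52 ± 0.0943, adjusted p = 0.000403). The libraries of the 2 groups were apart for both genes. Ccna2, Ccnb2 and the phosphatase gene Cdc25c rose by 0.75, 0.34 and 0.69. Cdc25b was the member that fell, at 70.6, 74.8 and 70.6 CPM in high-glucose cells and 87.0, 78.0 and 87.7 CPM in vehicle cells (-0.23 ± 0.0563, adjusted p = 0.00565).

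Among kinases outside the checkpoint, 3 of 4 rose. Plk1, which acts at centrosomes and kinetochores, had 7.04, 8.01 and 6.33 CPM in high-glucose cells, against 4.15, 3.82 and 5.75 CPM in vehicle cells (0.64 ± 0.115, adjusted p = 0.000354). Nek2, a kinase that separates centrosomes, had 15.6, 14.2 and 15.4 CPM in high-glucose cells, against 8.79, 8.38 and 7.59 CPM in vehicle cells (0.87 ± 0.0648, adjusted p = 1.21e-08). All high-glucose libraries lay above all vehicle libraries for Plk1 and for Nek2. Aurka rose by 0.35, and Melk differed by 0.28 with an adjusted p of 0.117.

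The chromosomal passenger complex rose with all 4 members and a median of 0.56. Its kinase Aurkb had 4.57, 4.94 and 4.06 CPM in high-glucose cells, against 3.06, 2.93 and 3.17 CPM in vehicle cells (0.57 ± 0.101, adjusted p = 0.000352). Incenp, Birc5 (survivin) and Cdca8 (borealin) rose by 0.27, 0.68 and 0.56. All 6 centromere and kinetochore genes rose too, with a median of 0.73. Cenpf, a large protein of the outer kinetochore, had 20.3, 23.7 and 25.5 CPM in high-glucose cells, against 12.9, 14.2 and 11.4 CPM in vehicle cells (0.85 ± 0.0837, adjusted p = 3.73e-07). Of the NDC80 complex, which grips spindle microtubules, Ndc80, Nuf2 and Spc25 rose by 0.72, 0.73 and 0.77. The remaining subunit, Spc24, is not among the 59 genes and rose by 0.38 (adjusted p = 0.0192).

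In the spindle assembly checkpoint, 3 of 5 members rose, namely Bub1 (0.69), Bub1b (0.64) and Mad2l1 (0.31). Bub3, which carries BUB1 and BUBR1 to kinetochores, was level at 22.3, 23.2 and 21.0 CPM in high-glucose cells and 22.5, 24.4 and 23.3 CPM in vehicle cells (-0.08 ± 0.051, adjusted p = 0.307). Ttk differed by 0.49 (adjusted p = 0.0536). Of the genes that end the checkpoint, Cdc20 had 8.77, 8.04 and 7.85 CPM in high-glucose cells, against 7.23, 5.19 and 5.44 CPM in vehicle cells (0.46 ± 0.0953, adjusted p = 0.00122). Securin (Pttg1) and separase (Espl1) rose by 0.63 and 0.56, whereas the APC/C-linked ubiquitin-conjugating enzyme Ube2c differed by 0.24 (adjusted p = 0.11).

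All 8 mitotic kinesins rose, by 0.54 to 0.82. The spindle pole motor Kif11 rose by 0.82, the microtubule depolymerase Kif2c by 0.68 and the chromosome-arm kinesins Kif4 and Kif22 by 0.65 and 0.54. Kif20a and Kif23, motors of the central spindle, rose by 0.60 and 0.54. Of the exon bases of Kif20a 54.75% lie opposite the coding gene Cdc23, so with the strand setting not given its reads are uncertain. All 6 spindle microtubule factors rose as well, by 0.49 to 0.97, among them Dlgap5, which stabilises kinetochore fibres, by 0.81 and the spindle protein Ckap2l by 0.71. Hmmr, a spindle and centrosome protein, had 15.1, 13.6 and 15.9 CPM in high-glucose cells, against 8.49, 7.99 and 6.32 CPM in vehicle cells (0.97 ± 0.0897, adjusted p = 1.84e-07). Nusap1, which bundles spindle microtubules, had 7.29, 7.37 and 8.36 CPM in high-glucose cells, against 4.69, 3.72 and 3.54 CPM in vehicle cells (0.95 ± 0.0914, adjusted p = 3.07e-07). For both, the lowest high-glucose library was well above the highest vehicle library.

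Of the genes of chromosome structure, 8 of 8 rose with a median of 0.65. Mki67, which coats mitotic chromosomes and marks cycling cells, had 34.9, 40.4 and 44.4 CPM in high-glucose cells, against 25.9, 22.5 and 19.1 CPM in vehicle cells (0.82 ± 0.0926, adjusted p = 1.83e-06). Top2a, the topoisomerase that untangles sister chromatids, had 84.9, 93.1 and 92.5 CPM in high-glucose cells, against 58.3, 55.6 and 52.5 CPM in vehicle cells (0.70 ± 0.0539, adjusted p = 1.75e-08). Ncapg, a condensin subunit, had 3.26, 3.30 and 3.41 CPM in high-glucose cells, against 1.47, 1.98 and 1.28 CPM in vehicle cells (1.07 ± 0.12, adjusted p = 1.82e-06). The groups did not overlap for any of these genes. Cdca2, which brings a phosphatase to anaphase chromatin, rose by 0.75. Of the exon bases of Ncapg 25.01% lie opposite the coding gene Lcorl, and the strand setting of the counting was not given, so its reads are uncertain.

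Prr11, a cell-cycle gene outside the main roles, showed the largest fold of the 59, with 7.72, 9.05 and 7.69 CPM in high-glucose cells, against 3.66, 3.69 and 3.51 CPM in vehicle cells (1.17 ± 0.078, adjusted p = 3.00e-09). Cytokinesis genes had the lowest median of the roles, 0.28. Anln and Prc1, which act at the cleavage furrow and the central spindle, rose by 0.55 and 0.23, while the RhoA activator Ect2 (0.33, adjusted p = 0.0619) and its partner Racgap1 (0.13, adjusted p = 0.104) did not pass. Racgap1 lay at 54.8, 56.0 and 50.3 CPM in high-glucose cells and 50.7, 46.1 and 50.4 CPM in vehicle cells, with overlap between the groups.

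**Figure D2:**
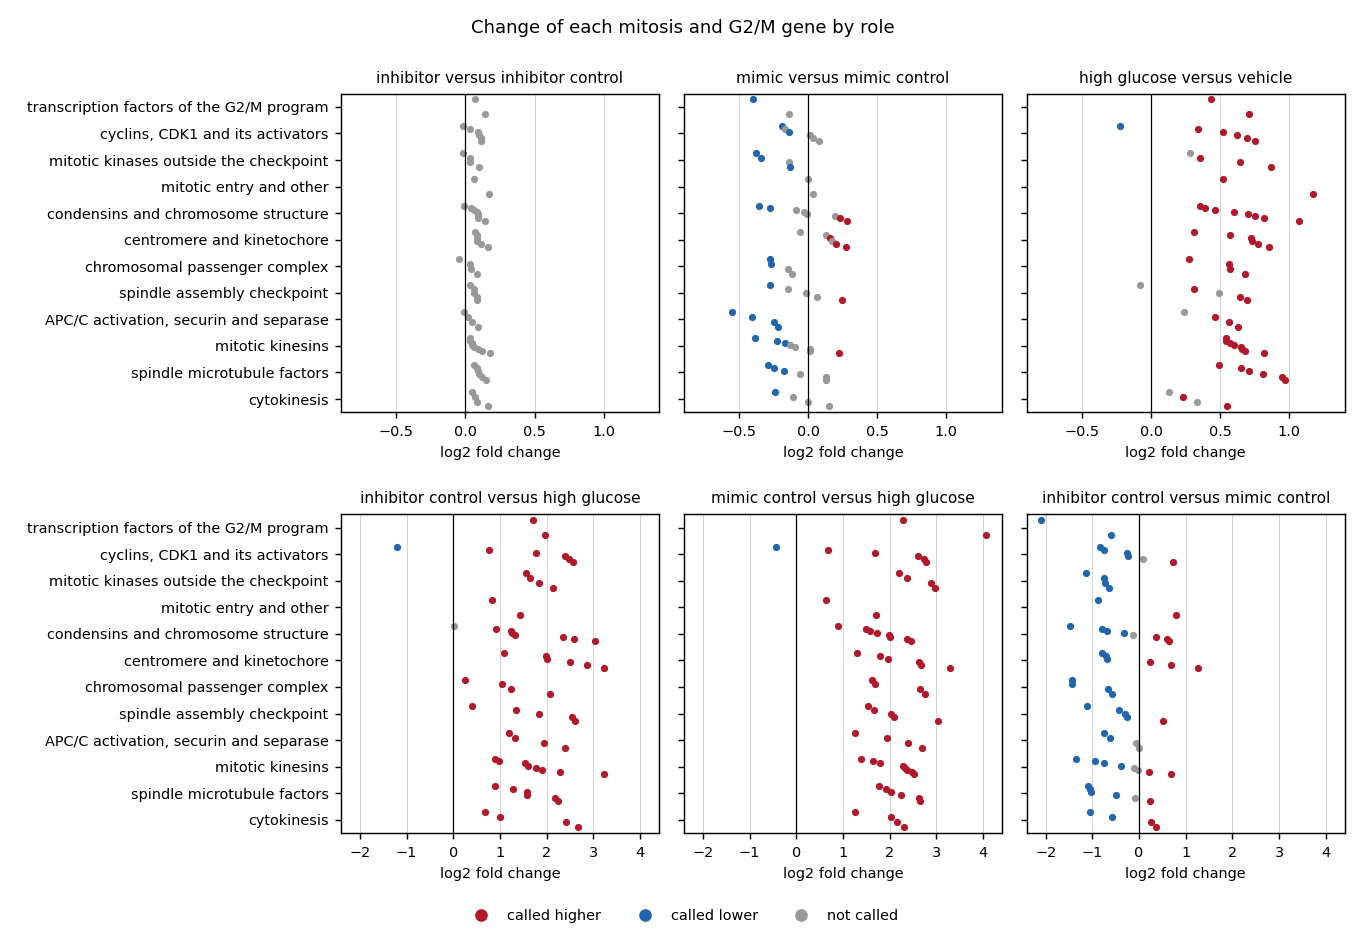
Log2 fold change of each of the 59 genes by role, 1 point per gene, in 3 comparisons within a pair of groups (top) and 3 comparisons that involve the negative controls (bottom, wider axis). Under high glucose 52 genes were called higher, with the inhibitor 0 were called, and with the mimic 7 were called higher and 22 lower.

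Some genes next to the members in the pathway rose as well. Of 29 further centromere and kinetochore genes, 15 rose and 0 fell (median 0.28), with Cenpk (1.18), Knl1 (0.67) and Zwilch (0.66) in front. Of 15 genes of cohesin, the ring that holds sister chromatids together, 10 rose and 1 fell (median 0.29). The cohesin acetyltransferase Esco2 (1.19) and the shugoshins Sgo1 (0.87) and Sgo2a (0.83) rose most. Of 34 genes of DNA replication and S phase, 10 were called higher and 1 lower (median 0.10). Cdc6, which loads the replicative helicase, rose by 0.65, and thymidine kinase Tk1 fell by 0.38. The summed level of these 34 genes was 560 to 575 CPM in high-glucose cells and 522 to 531 CPM in vehicle cells.

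The plot of fold changes by role puts the high-glucose pattern beside the other comparisons. Among the alternatives tried, 48 to 54 members were called higher and 1 lower in high-glucose cells. With GC content and transcript length corrected, all 53 calls held in the same direction. Of 6 fibroblast markers tested 2 were called higher, Col1a2 (0.51, adjusted p = 7.00e-06) and Pdgfra (0.49, adjusted p = 2.83e-05), and the other 4 lay at -0.15 to 0.08 and were not called. The summed fibroblast ranges given above did not overlap between the 2 groups. Of 8 cardiomyocyte markers 1 was lower, Nppb (-2.49, adjusted p = 1.98e-06), which stayed under 1 CPM in all libraries of both groups. Macrophage markers had 0 of 11 called, with 7 above 0 and 4 below. The shared model includes mimic replicate 2, and their standard errors ran from 0.282 to 1.58, so most could hardly be called. Their summed level was 53.8 to 56.0 unscaled CPM in high-glucose cells and 64.8 to 68.7 in vehicle cells, without overlap. Cd68 stood at -0.81 (adjusted p = 0.0866). The part of these marker genes in the member result was not tested.

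The 2 negative controls were compared with high-glucose cells to show what differed in transfected cells that received neither mimic nor inhibitor. Both comparisons use the same 3 high-glucose libraries. In mimic control cells 58 members were higher and 1 lower, against 39% and 39.9% of all genes, and the median log2 fold change was 2.09, against 0.01 over all genes. In inhibitor control cells 57 were higher and 1 lower, against 40.1% and 39.3% of all genes, and the median was 1.70, against 0.04. At least 2-fold higher were 55 members in mimic control cells (17.7% of all genes) and 47 in inhibitor control cells (19.3%), and at least 4-fold higher were 34 (6.04%) and 20 (7.72%). The transfection, the time of harvest and any difference in the cultures cannot be told apart here.

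**Figure D3:**
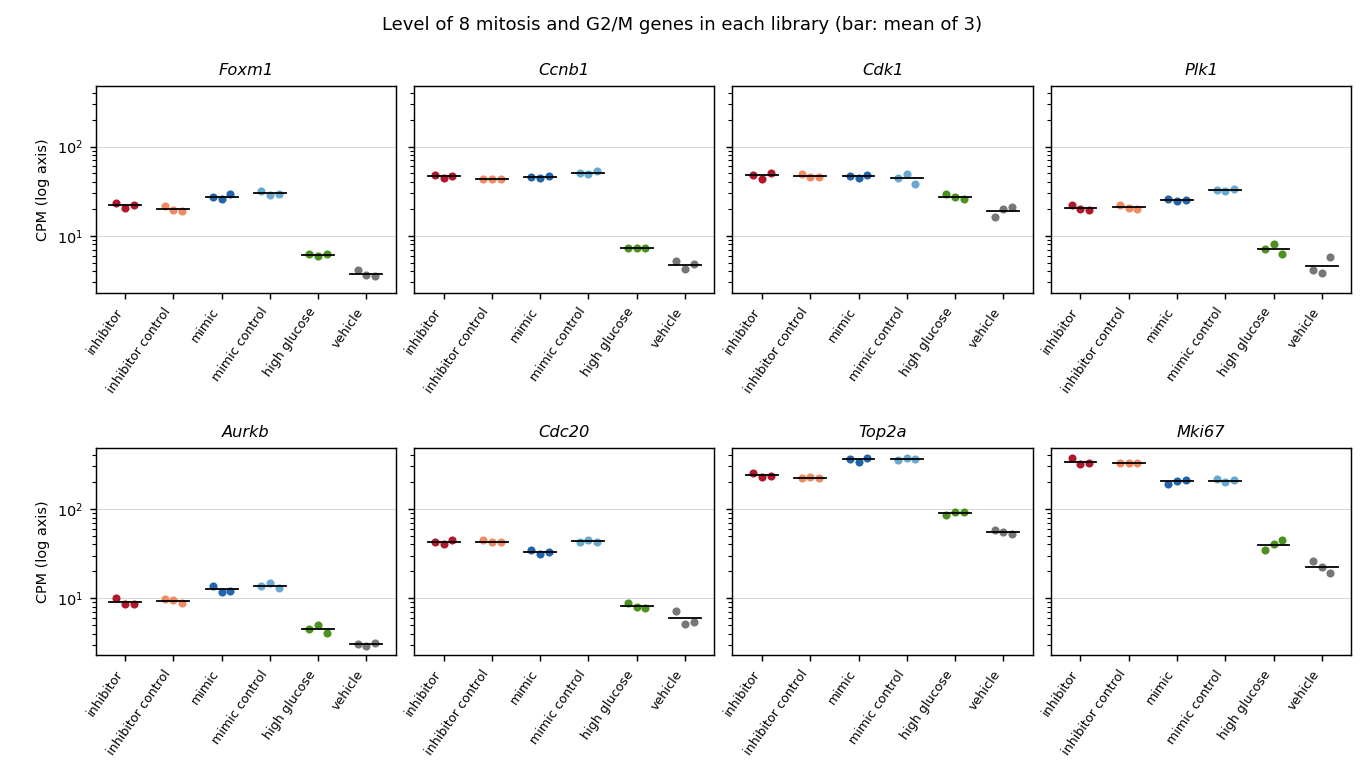
CPM of 8 members in each library on a log axis, with the 6 groups along the horizontal axis and a bar at the mean of 3 libraries. All 4 transfected groups lie above high glucose and vehicle for each of the 8 genes, and Cdk1 shows the smallest step.

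Mybl2 showed the largest step in mimic control cells, with 35.3, 34 and 34 CPM, against 2.16, 2.14 and 1.87 CPM in high-glucose cells (16.7-fold, log2 fold change 4.07 ± 0.0806, adjusted p = 1.07e-19). In inhibitor control cells Mybl2 had 8.64, 7.52 and 7.86 CPM (3.90-fold over high glucose). The kinetochore gene Ndc80 followed in mimic control cells at 9.76-fold. Aurka, the centrosomal Aurora kinase, reached 110, 106 and 111 CPM in mimic control cells and 49.2, 49.5 and 49.6 CPM in inhibitor control cells, against 14.5, 13.8 and 13.3 CPM in high-glucose cells. That makes 7.85-fold and 3.57-fold, with no library of either control near the high-glucose range. Exons of Aurka share 25.19% of their bases with Fam210b on the opposite strand, which leaves part of its reads uncertain.

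In inhibitor control cells the 3 largest folds over high glucose were those of Cenpf, Kif20b and Mki67. Cenpf had 206, 226 and 220 CPM in inhibitor control cells, against 20.3, 23.7 and 25.5 CPM in high-glucose cells (9.36-fold, adjusted p = 3.43e-18). The midbody kinesin Kif20b had 59.2, 62.2 and 62.2 CPM in inhibitor control cells, against 6.70, 6.48 and 6.50 CPM in high-glucose cells (9.33-fold, adjusted p = 1.91e-17). Mki67 had 324, 332 and 324 CPM in inhibitor control cells and 214, 202 and 209 CPM in mimic control cells, against 34.9, 40.4 and 44.4 CPM in high-glucose cells, which is 8.18-fold and 5.22-fold.

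Cyclin B1 and CDK1 differed in the size of the step. Ccnb1 had 43.0, 43.4 and 43.4 CPM in inhibitor control cells and 50.2, 49.2 and 52.9 CPM in mimic control cells, against 7.38, 7.34 and 7.23 CPM in high-glucose cells (5.91-fold and 6.94-fold). Cdk1 had 49.3, 45.7 and 45.3 CPM in inhibitor control cells and 44.3, 49.1 and 38.3 CPM in mimic control cells, against 29.2, 27.2 and 25.6 CPM in high-glucose cells (1.71-fold and 1.61-fold). Both genes rose in each control, and the folds of the catalytic subunit were the smaller ones. Cdc20 rose 5.25-fold and 5.28-fold in inhibitor control and mimic control cells, and Plk1 2.93-fold and 4.58-fold.

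A few members stood outside this pattern in inhibitor control cells. Ncaph, the kleisin subunit of condensin I, lay at 19.2, 19.6 and 17.9 CPM in inhibitor control cells and 18.3, 19.7 and 18 CPM in high-glucose cells (log2 fold change 0.02 ± 0.0678, adjusted p = 0.775). Incenp rose by 0.26 (adjusted p = 0.0147), and Cdc25b fell by 1.20 (adjusted p = 1.94e-13). In mimic control cells Ncaph and Incenp rose by 1.49 and 1.69, and Cdc25b fell by 0.44.

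The 2 negative controls were then set against each other, since both were transfected in high glucose with neither mimic nor inhibitor. Of 59 members 14 were higher and 38 lower in inhibitor control cells than in mimic control cells, against 38.5% and 35.7% of all genes, with a median of -0.57, against 0.04 over all genes. Mybl2 differed most, at 8.64, 7.52 and 7.86 CPM in inhibitor control cells, against 35.3, 34 and 34 CPM in mimic control cells (-2.10 ± 0.0681, adjusted p = 1.37e-15). All 4 members of the chromosomal passenger complex fell, with a median of -1.05, among them Incenp and Cdca8 by 1.43 each. Also lower were Ncaph (-1.47), the kinesin Kif18b (-1.35) and Aurka (-1.14). Higher were Cenpf (1.27), Cdca3 (0.78), Ccnb2 (0.73), the centromeric histone Cenpa (0.69), Kif20b (0.69) and Mki67 (0.65).

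With GC content and transcript length corrected, an alternative chosen after seeing the data, 6 members were higher and 48 lower in inhibitor control cells. Over all 15074 genes tested 5244 were then higher and 6027 lower. Kif20b then stood at -0.09 (adjusted p = 0.258). Cdc20, which differed by -0.01 (adjusted p = 0.933) as counted, then stood at 0.23 (adjusted p = 0.00388). Of the 52 calls, 43 held in the same direction and 6 turned, all from higher to lower, namely Cenpe, Anln, Ect2, Hmmr, Smc2 and Smc4. Read-weighted GC content was 49.4% to 49.6% in inhibitor control libraries and 50.7% in mimic control libraries.

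Replication genes also differed between the controls. The summed S phase level was 784 to 818 CPM in inhibitor control cells, 2479 to 2494 CPM in mimic control cells and 560 to 575 CPM in high-glucose cells. All 34 S phase genes were lower in inhibitor control cells than in mimic control cells, with a median of -1.46, while the summed level of the members was 3473 to 3530 CPM in inhibitor control cells and 4537 to 4651 CPM in mimic control cells. Of the 34 S phase genes 23 were higher and 5 lower in inhibitor control cells than in high-glucose cells (median 0.64), against 40.1% and 39.3% of all genes, and in mimic control cells 34 were higher (median 1.93), against 39%. The plot of the 2 sums shows the inhibitor pair above the untransfected cells on both axes and below the mimic pair on both.

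**Figure D4:**
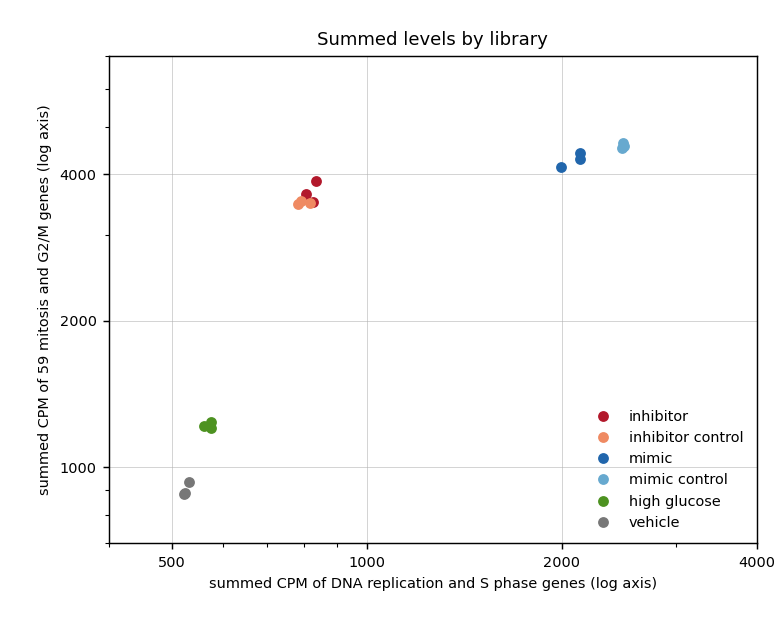
Summed CPM of the 59 mitosis and G2/M genes (vertical) against summed CPM of 34 DNA replication and S phase genes (horizontal), 1 point per library, both axes logarithmic. Inhibitor and inhibitor control libraries lie at 784 to 835 CPM on the horizontal axis, and mimic and mimic control libraries at 1996 to 2494 CPM.

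Mimic cells were compared with mimic control cells, all in high glucose, to ask what added miR-200a-3p did. Members shifted in both directions by small amounts, with genes of the metaphase-to-anaphase switch lower in mimic cells. Condensin genes split, with Smc4 and Smc2 called higher and Ncapd2 and Ncaph lower. With GC content and transcript length corrected, 0 members were called higher, against 1449 of all 15074 genes tested. As counted, 7 of the 59 were called higher, a smaller share than the 15.8% of all genes, and 22 lower, against 18% of all genes. The median log2 fold change was -0.11, against 0 over all genes, and the whole range was -0.55 to 0.28. In 11 members every mimic library lay above every mimic control library and in 25 below, as in 20.7% and 24.1% of all genes. The split was 3 higher and 24 lower with DESeq2 size factors, where 2088 and 2990 of all genes were called. It was 9 higher and 18 lower with upper quartile scaling (2851 and 2320 of all genes). With limma on log2(FPKM + 1) it was 12 higher and 15 lower (2830 and 1785 of all genes). The counts over all genes thus shifted with the setting as well.

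The microRNA is read through its seed, bases 2 to 8 from the 5′ end, shown in capitals in the RefSeq sequence (GRCm38.p6, chr4:156054911-156054932, - strand).
mmu-miR-200a-3p: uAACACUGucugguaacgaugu
A match to the seed in the 3′ end of a transcript is how microRNAs find most targets. A site was counted where the annotated 3′ untranslated region on GRCm39 matched bases 2 to 8, or bases 2 to 7 followed by an A. Among the members 12 of 59 (20.3%) carried a site, 9 of them matching bases 2 to 8 and 3 (Kif18b, Ect2 and Incenp) only the shorter form, and 0 of 59 an 8mer, which combines both, against 25.2% and 4.7% of 17443 genes. The median 3′ untranslated region was 681 nt in members and 1211 nt in those genes, and the shares are not adjusted for length. The site of cyclin B1 and, of the 2 sites each of the kinetochore gene Cenpf and the kinase Nek2, the one nearer the stop codon are shown with 6 flanking bases on each side and the match in capitals, because these members were called in opposite directions.
Ccnb1: cctccaCAGTGTTcttaaa
Cenpf: gcaggtCAGTGTTtgaact
Nek2: ctgggtCAGTGTTgatact
They lie at chr13:100915461-100915467 (- strand), chr1:189373147-189373153 (- strand) and chr1:191563493-191563499 (+ strand), positions of the 7 matched bases. Of the 12 members with a site 1 was higher and 6 were lower with the mimic, with a median of -0.14. Of the 47 without a site 6 were higher and 16 lower, with a median of -0.09.

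All 4 genes of APC/C activation, securin and separase fell, with a median of -0.33. Espl1, the protease that opens cohesin rings, had 16.9, 17.5 and 18.2 CPM in mimic cells, against 26.9, 24.6 and 25.4 CPM in mimic control cells (-0.55 ± 0.0741, adjusted p = 2.95e-05). Cdc20 had 34.3, 31.1 and 32.8 CPM in mimic cells, against 42.5, 44.7 and 42.9 CPM in mimic control cells (-0.41 ± 0.0751, adjusted p = 0.000483). No mimic library of either gene reached the control range. Pttg1 and Ube2c fell by 0.22 and 0.25, and neither call held without mimic replicate 2.

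Of the mitotic kinases 3 of 4 fell. Plk1 had 25.7, 24.3 and 25.3 CPM in mimic cells, against 32.8, 31.9 and 33.2 CPM in mimic control cells (-0.38 ± 0.0912, adjusted p = 0.0039). Aurka had 87.9, 86.1 and 83.0 CPM in mimic cells, against 110, 106 and 111 CPM in mimic control cells (-0.34 ± 0.0531, adjusted p = 9.77e-05). Both groups of libraries were apart for each gene. Nek2 changed by -0.13 (adjusted p = 0.0484), a call lost without mimic replicate 2 and with GC content and length corrected. Aurora A's activator Tpx2 fell by 0.29 and the Aurora A substrate Tacc3 by 0.18, and Incenp and Cdca8 of the passenger complex fell by 0.27 and 0.28. The kinesins Kif22 and Kif2c fell by 0.23 and 0.17 and Dlgap5 by 0.25, whereas Kif4 (-0.10), Kif20a (-0.13), Kif23 (0.01), Ckap2l (-0.06) and Cdca2 (-0.09) were not called. The Kif2c call was lost without mimic replicate 2.

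The transcription factor Mybl2 had 26.4, 24.4 and 27.3 CPM in mimic cells, against 35.3, 34 and 34 CPM in mimic control cells (-0.40 ± 0.0626, adjusted p = 0.000104). Kif18b, a kinesin that shortens astral microtubules, had 31.7, 32.7 and 34.3 CPM in mimic cells, against 42.8, 43.8 and 43.1 CPM in mimic control cells (-0.39 ± 0.063, adjusted p = 0.000133). The condensin I subunits Ncapd2 and Ncaph fell by 0.36 and 0.28. Foxm1 had 27.2, 25.6 and 29.1 CPM in mimic cells and 32.0, 28.7 and 29.8 CPM in mimic control cells, and the groups overlapped (-0.14, adjusted p = 0.111).

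The condensin core was called in the other direction, without holding under every alternative. Smc4 had 202, 201 and 207 CPM in mimic cells, against 165, 168 and 169 CPM in mimic control cells (0.28 ± 0.0835, adjusted p = 0.014), and Smc2 rose by 0.23 (adjusted p = 0.0133). Without mimic control replicate 1 both calls were lost (adjusted p = 0.0548 and 0.0532), and that of Smc2 also without mimic replicate 3 (0.0789) or mimic control replicate 3 (0.0672). Cenpf had 105, 109 and 112 CPM in mimic cells, against 88.3, 91.9 and 90.3 CPM in mimic control cells (0.27 ± 0.0706, adjusted p = 0.0065). Kif20b (0.22), Nuf2 (0.20), Spc25 (0.16) and the checkpoint kinase Bub1 (0.24) were also called higher. Of the 7 calls 0 held with GC content and length corrected, and the Kif20b and Nuf2 calls were lost in 6 and 7 of 27 alternatives. Of the 27, 18 leave out 1 library each, most from groups outside this comparison. Among libraries of the compared groups, the Nuf2 call was lost without mimic replicate 1 or 3 or mimic control replicate 1 or 2. The Kif20b call was lost without mimic replicate 3 or mimic control replicate 1 or 2. The Bub1 call, at an adjusted p of 0.0469, was lost in 18 of 27 alternatives, with an adjusted p of 0.176 without mimic replicate 1 and of 1 with GC content and length corrected. Spc25 shares 52.52% of its exon bases with Nostrin on the opposite strand.

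Cyclins and proliferation markers were near level as counted. Ccnb1 had 46.1, 44.8 and 46.9 CPM in mimic cells, against 50.2, 49.2 and 52.9 CPM in mimic control cells (-0.14 ± 0.0504, adjusted p = 0.0328). That call was lost in 7 of 27 alternatives, among them without mimic replicate 2 (adjusted p = 0.0896), and without mimic control replicate 1 (0.0539) or replicate 3 (0.126). Mki67 had 192, 207 and 211 CPM in mimic cells and 214, 202 and 209 CPM in mimic control cells (-0.03, adjusted p = 0.788). Top2a (-0.01, adjusted p = 0.86), Cdk1 (0.08, adjusted p = 0.534) and Aurkb (-0.15, adjusted p = 0.197) were not called, and the ranges of the 2 groups overlapped for Mki67, Top2a, Cdk1 and Aurkb. With GC content and length corrected, Top2a was called lower (-0.20, adjusted p = 0.00495). The summed level of the members was 4143 to 4423 CPM in mimic cells and 4537 to 4651 CPM in mimic control cells.

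Fold changes with the mimic followed the base composition of the transcripts. The 7 members called higher had a transcript GC content of 39.5% to 43.4% and the 22 called lower one of 44.4% to 56.9%, with no overlap. Across the 59 genes, which share the same libraries, Spearman's rho between log2 fold change and GC content was -0.82, against -0.47 over 15028 genes. Read-weighted GC content was 50.2% in mimic libraries and 50.7% in mimic control libraries. With GC content and length corrected, 0 members were higher and 26 lower, against 1449 and 2458 of all 15074 genes tested. Of the 29 calls 20 held in the same direction and 0 turned, and rho was -0.38. Smc2 and Kif20b then stood at -0.07 and -0.09, Smc4 at 0.01 and Cenpf at 0.10, and none of these 4 was called. Espl1, Cdc20, Mybl2, Kif18b, Plk1, Aurka and Ncapd2 kept their calls. Top2a, Kif11, Anln, Prc1, Melk and Prr11, not called as counted, were called lower with the correction.

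**Figure D5:**
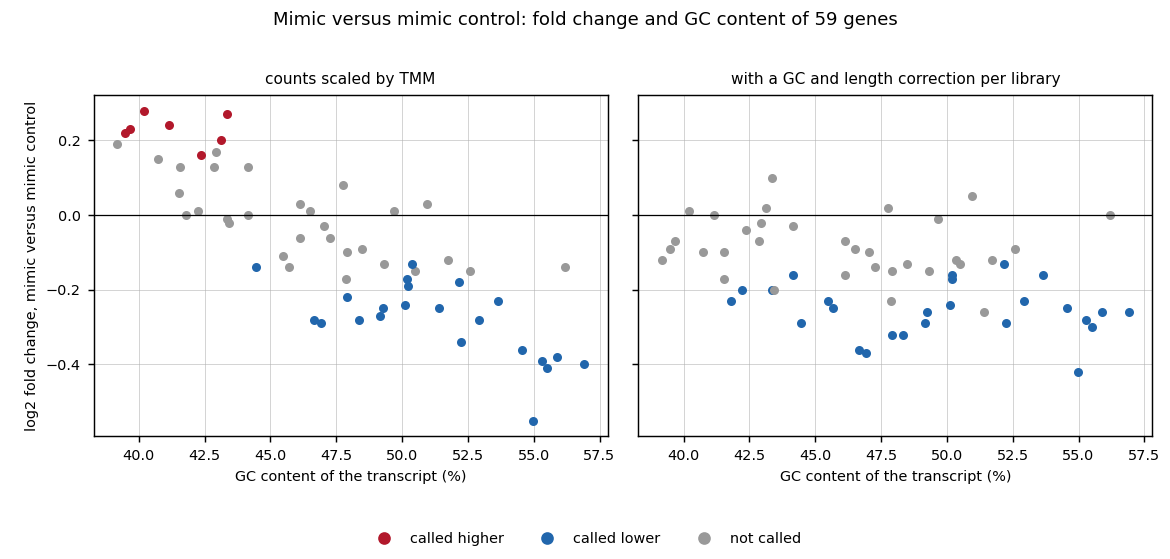
Log2 fold change, mimic versus mimic control, against the GC content of the transcript for the 59 genes, as counted (left) and with GC content and length corrected within each library (right). The 7 genes called higher lie at 39.5% to 43.4% GC on the left, and no gene is called higher on the right.

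The number of members called higher with the mimic also changed with single libraries. It was 4 without mimic replicate 1, 2 without mimic replicate 3, and 1, 4 and 4 without mimic control replicates 1, 2 and 3. Over all genes those fits called 2057, 1852, 1645, 1766 and 1696 higher, against 2375 with every library. Without mimic replicate 2, the library with macrophage transcripts, 8 members were higher and 16 lower, and 23 of the 29 calls held. Macrophage markers, with 9 of 11 tested called higher and a median of 3.72, moved with the mimic group through that library. S phase genes were lower with the mimic, 17 of 34 with 0 higher and a median of -0.20, and their summed level was 1996 to 2137 CPM in mimic cells and 2479 to 2494 CPM in mimic control cells. The helicase subunit gene Mcm5 fell by 0.49. Cdkn1a, which encodes the CDK inhibitor p21, fell by 0.61.

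The inhibitor was compared with its negative control to ask what blocking miR-200a-3p did. Of the 59 members 0 were called in either direction, as was 0% of all genes tested. The median log2 fold change was 0.08, against 0 over all genes, with a range of -0.05 to 0.18. Above 0 lay 54 of the 59 members, against 7493 of 15074 genes tested. The members share the same libraries, so they are not independent of each other. At an unadjusted p under 0.05, 4 members and 447 genes passed, and DESeq2 called 0 members. In 13 members every inhibitor library lay above every inhibitor control library, as in 5.09% of all genes, and in 0 members all lay below, as in 5.47%.

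Summed over the members, inhibitor libraries had 3508 to 3878 CPM and inhibitor control libraries 3473 to 3530 CPM, so that the ranges overlapped. The highest value came from inhibitor replicate 1, and without it the median was 0.03. Mki67 had 371, 322 and 328 CPM in inhibitor cells and 324, 332 and 324 CPM in inhibitor control cells. Top2a had 253, 229 and 237 CPM in inhibitor cells and 224, 225 and 224 CPM in inhibitor control cells. Mki67 overlapped between the groups and Top2a did not, at log2 fold changes of 0.06 ± 0.0814 and 0.09 ± 0.0514.

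The mitotic kinases and switches were level with the inhibitor. Ccnb1 had 48.2, 44.4 and 47.2 CPM in inhibitor cells and 43.0, 43.4 and 43.4 CPM in inhibitor control cells. Cdk1 had 48.5, 43.3 and 51.0 CPM in inhibitor cells and 49.3, 45.7 and 45.3 CPM in inhibitor control cells. Plk1 had 22.1, 19.8 and 19.6 CPM in inhibitor cells and 22.0, 20.6 and 20.0 CPM in inhibitor control cells. The ranges overlapped for Cdk1 and Plk1 and not for Ccnb1, whose change of 0.11 ± 0.0505 had an adjusted p of 1. Cdc20 had 43.1, 40.3 and 44.9 CPM in inhibitor cells and 44.7, 42.2 and 42.5 CPM in inhibitor control cells. Aurkb had 9.92, 8.51 and 8.68 CPM in inhibitor cells and 9.71, 9.45 and 8.84 CPM in inhibitor control cells, and Foxm1 had 23.2, 20.7 and 22.1 CPM in inhibitor cells and 21.5, 19.5 and 18.8 CPM in inhibitor control cells. For these 3 genes the groups overlapped as well.

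The effect of the mimic was set against that of the inhibitor by testing the difference of the 2 log2 fold changes. It was lower for 18 members and higher for 0, against 8.59% and 4.63% of all genes, with a median of -0.17, against 0.01. Espl1 differed by -0.59 ± 0.106 (adjusted p = 0.00181), with -0.55 for the mimic and 0.05 for the inhibitor. Mybl2 (-0.47), Kif18b (-0.43), Ncaph (-0.41), Cdc20 (-0.39), Aurka (-0.38), Tpx2 (-0.37), Dlgap5 (-0.34), Ncapd2 (-0.34) and Racgap1 (-0.33) followed in size. Ccnb1 (-0.25) and Nek2 (-0.23) showed the smallest of the 18 differences. The Ccnb1 call was lost in 6 of 27 alternatives and that of Cdc20 in 4, at adjusted p values of 0.0511 to 0.105 over both. Plk1 differed by -0.35 with an adjusted p of 0.0786. It was called lower with no filter (0.0101), the DESeq2 test (0.0206), the compared groups alone (0.0058) and without vehicle replicate 3 (0.0217). Foxm1 (-0.28) was not called as reported. It was called lower with DESeq2 size factors, the DESeq2 test, a replicate block, the compared groups alone, and without inhibitor control replicate 1 or mimic replicate 3. Top2a was called lower with GC content and length corrected (-0.28, adjusted p = 0.0138). None of the kinetochore members was among the 18. Without mimic replicate 2, 14 members were lower, and with limma on log2(FPKM + 1) or log2(FPKM + 0.1), 11. Over all genes 1021, 796 and 752 were lower in these 3 settings, against 1295 as reported.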

How the data were processed

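RNA was sequenced in 18 libraries of cultured mouse cells as stranded, paired reads of 150 nt, per the labels' protocols. Per the same protocols, reads with over 2 N bases were discarded, FASTX-Toolkit 0.0.13 trimmed adaptors, reads under 16 nt were dropped, HISAT2 placed the rest on GRCm39 with 4 mismatches allowed, and reads with 1 location were counted per gene. The authors deposited these read counts and a table of FPKM, scaled by them to transcript length and library size. The submitters' processing notes also name DESeq2, with no role. The counting program, annotation release and strand setting are not given in the sources used here, so overlapping genes on opposite strands may share reads (20 members share exon bases with one).

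Counts were filtered with filterByExpr (minimum count 10, minimum total 15), scaled by TMM and tested with edgeR 4.0.16 in R 4.3.3. One quasi-likelihood model, with a term for each group, took in the 18 libraries (15074 genes, 12 residual degrees of freedom), with Benjamini-Hochberg adjustment over all genes and a threshold of 0.05. It was checked on simulated counts. A floor of 3 reads covers counting error only. Replicates differed by 4.37 to 26.1 chi-square per degree of freedom, so none counted as a repeat. Same-numbered replicates of compared groups correlated at -0.17 to 0.10 in their deviations, so numbers were not taken to pair samples.

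GC content, length and 3′ UTRs came from the GENCODE M39 annotation of GRCm39, which matched 28849 of 29112 genes and all members. Alternatives were DESeq2 size factors, upper quartile scaling, no filter, DESeq2 1.42.0, the compared groups alone, a replicate block, limma 3.58.1 on log2(FPKM + 1) and log2(FPKM + 0.1), each library left out and, added after seeing the data, a per-library GC and length correction. The members, role groups and gene lists were chosen with earlier results of these data known. By the rule for named members, Foxm1, Ccnb1, Cdk1, Plk1, Aurkb, Cdc20, Top2a and Mki67 are given library by library, and up to 6 called members per direction of a comparison are named with values, by size of change. Other members are named with a value to account for their role, outside that rule and with their values seen, as are Spc24 and the marker genes. From each other list, up to 3 called genes per direction, or the 1 with the smallest p, could be named.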

Additional observations from a re-analysis of the deposited data

How the results depend on the processing

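Over 101 gene results and all alternatives, 2654 of 2727 values kept their direction and side of the threshold, 54 lost and 15 gained a call, and 4 reversed. Of the 27 alternatives per result, 18 leave out 1 library, often one of a group outside the comparison. The reversals came with GC content and length corrected: Smc2 (-0.07) and Kif20b (-0.09) with the mimic, and Cdc20 (0.23) and Kif20b (-0.09) between the negative controls. Outside these 101 results, 6 members turned from called higher to called lower between the controls with the same correction, as named above. Members called higher with the mimic, 7 as reported, numbered 3 with DESeq2 size factors, 4 with the DESeq2 test, 12 with limma on log2(FPKM + 1) and 0 with that correction, and 1 to 9 with single libraries left out. Over all genes the first 4 of these settings called 2088, 1873, 2830 and 1449 higher, against 2375. Members higher in inhibitor control than in mimic control cells numbered 6 with the correction, against 14. Over all genes the correction called 5244 higher there, against 5796. For the difference between the effects of mimic and inhibitor, 1 member was higher with the compared groups alone, and 11 were lower with limma at either pseudocount, against 18, or 12 to 19 with single libraries left out. Over all genes limma called 796 and 752 lower, against 1295. The cause of these differences was not tested. High glucose gave 48 to 54 members higher and 1 lower, mimic control 58 higher and 1 lower over high glucose in every alternative, and inhibitor control 56 to 57 higher and 1 lower. Upper quartile scaling moved the median of all genes between the controls to 0.15, against 0.04. The median under high glucose was 0.36 with limma on log2(FPKM + 1), a scale that shrinks changes of low genes. The fit with a replicate block called 52 higher and 1 lower under high glucose, 6 and 22 with the mimic, 0 and 0 with the inhibitor, 58 and 1 and 57 and 1 for the controls over high glucose, 14 and 38 between controls and 0 and 18 for the difference of effects. Of the named genes it ended the Bub1 call with the mimic (adjusted p = 0.0562) and added Foxm1 to the difference of effects (0.0341). Depth set similar floors in all libraries, of 0.0791 to 0.0891 CPM, below every member level.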

Other observations

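Other gene lists of the cell cycle were counted beside the members, and each was chosen with earlier results known. Their counts under high glucose stand beside 12% of all genes called higher and 12.2% lower, and counts near those shares are not results about a list. Under high glucose, E2f4, a subunit of the DREAM complex that represses cell-cycle genes in resting cells, rose by 1.03 (SE 0.0507, adjusted p = 6.12e-11 in edgeR's quasi-likelihood test), and 2 of 11 genes of that list rose and 1 fell. E2f4 averaged 34.1 unscaled CPM in high-glucose cells and 16.8 unscaled CPM in vehicle cells. Among 12 genes of the G2 checkpoint 1 rose and 1 fell, the second being Pkmyt1 (-0.73), which encodes a kinase that holds CDK1 inactive. Of 17 subunits and regulators of the APC/C 6 rose and 0 fell, led by its inhibitor Fbxo5 (0.85). G1 cyclins and CDK inhibitors went both ways, with 2 of 12 higher and 4 lower, among them Ccne2 (0.46) and Ccnd1 (-0.42).

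With the mimic, where 15.8% of all genes were called higher and 18% lower, 8 of 15 cohesin genes rose and 1 fell (median 0.23). The acetyltransferase Esco1 (0.66), the subunit Stag2 (0.43) and the loader Nipbl (0.34) rose most. The APC/C list split into 3 higher and 5 lower, with Cdc27 (0.36) and Anapc7 (-0.51) at its ends. Of 29 further kinetochore genes 2 rose and 3 fell, smaller shares than over all genes. With the inhibitor 0 genes of any of these lists were called, as for all genes tested. In mimic control cells the replication helicase genes Mcm3 and Mcm5 lay 4.44 above high-glucose cells on the log2 scale. Cdkn1a averaged 61.7 unscaled CPM in inhibitor cells, 60.6 in inhibitor control cells, 122 in mimic cells and 177 in mimic control cells, against 285 in high-glucose cells and 297 in vehicle cells.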
